A study of Mus musculus and Homo sapiens with 60 samples.

Results

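Isolated distal enhancers of wild-type mouse B cells were the H3K27ac peaks of wild-type spleen that overlapped a wild-type H3K4me1 peak, touched no wild-type H3K4me3 peak and had no other such peak within 12.5 kb on either side. The regions were chosen by these wild-type lists alone, and 7195 of 40757 wild-type H3K27ac peaks met the rule, or 17.7%. They made up 32.8% of the 21960 distal enhancers of the same kind, the other 14765 of which lay in clusters. Wild-type H3K27ac was 1 list without a replicate. A peak in 1 of the 2 wild-type H3K4me1 lists was enough, and 6119 of the isolated enhancers (85.0%) had one in both. Enhancers are stretches of DNA that bind transcription factors and raise the activity of genes that can lie far away. Monomethylation of histone H3 at lysine 4 (H3K4me1) marks enhancers whether or not they are in use, acetylation at lysine 27 (H3K27ac) marks active enhancers and promoters, and trimethylation at lysine 4 (H3K4me3) marks promoters. Myc is a transcription factor that pairs with Max on E-box DNA. It is known mainly from promoters, and it is also found at enhancers when its level is high. RNA polymerase II (RNAPII) transcribes genes, and a low amount of it is also found at active enhancers.

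The regions were followed in the Eµ-myc model by chromatin immunoprecipitation and sequencing (ChIP-seq). The C57BL/6 material fell into 3 groups: lymph node tumours of Eµ-myc transgenic mice (Tg tumour), spleen B cells of young Eµ-myc transgenic mice (Tg spleen) and spleen B cells of young non-transgenic mice (WT spleen). The transgene is driven by an immunoglobulin heavy-chain enhancer, so it acts in the B lineage. Spleen cells were taken at 6 to 8 weeks and enriched with beads against B220, a surface protein of B cells, whereas tumour cells were strained from lymph nodes with no further purification. Stage, tissue and purity thus changed together between spleens and tumours, and these cannot be told apart. Mouse 3T9 fibroblasts, a cell line, served as a cell type outside the B lineage. Cell-type marker genes were not analysed here.

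Each library came as its own list of peaks, without read counts, so sequencing depth is unknown. Myc had 3 tumour, 3 Tg spleen and 1 WT spleen lists, and RNAPII had 3, 1 and 1. Tg lists of H3K27ac numbered 3 from tumours and 1 from spleen, and those of H3K4me1 and of H3K4me3 numbered 3 from tumours and 2 from spleen. Myc lists held 27347 to 34142 peaks in tumours, 5246 to 12985 in Tg spleen and 6978 in WT spleen. The peaks of Tg spleen list 1 and of the WT spleen list were narrow, with medians of 261 bp and 233 bp. The other Myc lists had medians between 1386 and 1476 bp. In RNAPII the tumour lists held 27719 to 31442 peaks, against 17173 in Tg spleen and 15571 in WT spleen. A region was counted as carrying a factor or mark when at least 1 bp of it was covered by a peak. The labels do not say that replicates came from separate animals, so every p measures only the spread between these libraries.

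The regions were mostly weak members of the acetylated set. Their median width was 1903 bp, against 2189 bp for clustered distal enhancers and 2730 bp for acetylated regions on H3K4me3. The peak caller's score grows with the strength of the evidence for a peak, but only up to a point: 6031 of the 40757 wild-type H3K27ac peaks shared the score 3100, and 289 scored above it. Of the isolated enhancers 130 had that score and 9 a higher one, and the order at the top of the scale was not read as an order of strength. The median score was 223 in isolated enhancers and 276 in clustered ones. Of the isolated enhancers 74.3% scored below the median of all wild-type H3K27ac peaks, against 65.7% of the clustered ones. The median distance to the next distal enhancer was 32312 bp, and that to the nearest wild-type H3K4me3 peak was 17416 bp. Isolation held with respect to other distal enhancers only. Another wild-type H3K27ac peak of some kind lay within 12.5 kb of 3274 isolated enhancers (45.5%), and 952 (13.2%) lay within 2500 bp of a wild-type H3K4me3 peak. The 2 members nearest to the distance limit stood 12506 and 12508 bp from the next distal enhancer, on chromosomes 18 and 14. They scored 336 and 295. The 2 regions just outside the limit, on chromosomes 1 and 19, stood 12497 and 12495 bp away and scored 134 and 160.

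Myc occupied a minority of the isolated enhancers in tumours and few of them in spleen. The share was 30.3%, 24.2% and 31.4% in Tg tumours 1, 2 and 3, against 3.75%, 3.32% and 11.4% in Tg spleens 1, 2 and 3. The WT spleen library had Myc at 1.4% of the regions, or 101 of 7195 (exact 95% binomial interval 1.14% to 1.70%, counting error only). All 3 tumours stood above all 3 Tg spleens, and Tg spleen 3 stood above the other spleen libraries. The mean was 28.6% ± 3.87 in tumours and 6.15% ± 4.53 in Tg spleen (SD, n = 3 each), a difference of 22.5 percentage points. An exact two-sided permutation test over libraries gave p = 0.1, the smallest p that 3 against 3 libraries allow. With any 1 library left out, Tg spleen 1 with its narrow peaks and Tg spleen 3 included, the difference was 21.1 to 25.1 percentage points. In bulk samples such as these, fewer cells with a peak and less signal per cell cannot be told apart. Over all 40757 wild-type acetylated regions Myc was found at 49.2%, 45.4% and 48% in the tumours, at 20.4%, 11.9% and 27.2% in Tg spleen and at 12.2% in WT spleen. The isolated enhancers thus carried Myc less often than the acetylated set as a whole in each of the 7 libraries, and most of that set's Myc lay on H3K4me3. Acetylated regions on H3K4me3 carried Myc in 75.5% to 79.3% of cases in tumours, in 24.0% to 49.6% in Tg spleen and in 27.7% in WT spleen.

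**Figure D1:**
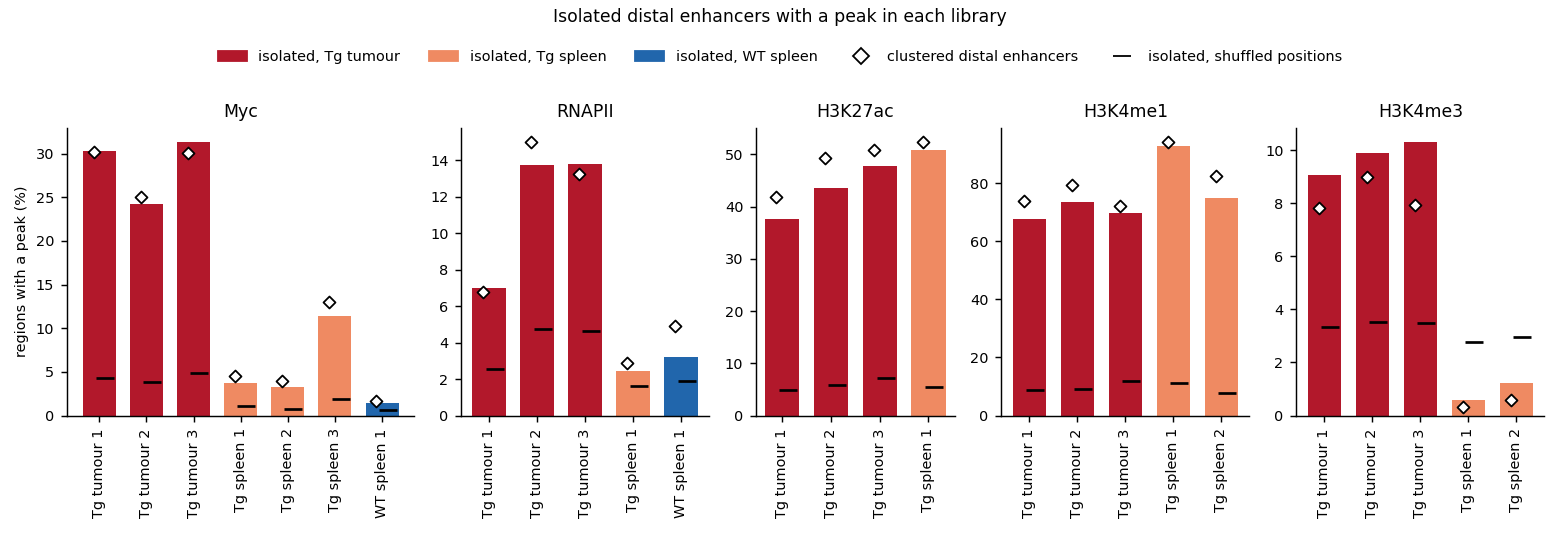
Share of isolated distal enhancers (y axis, percent of 7195 regions) with a peak in each library (x axis) for 5 antibodies; the lists that chose the regions are left out. Bars are isolated enhancers coloured by group, diamonds are clustered distal enhancers, and dashes are the share over all placements of the same regions on their chromosomes. Myc ranges from 24.2% to 31.4% in Tg tumours and from 3.32% to 11.4% in Tg spleen, and H3K4me3 from 9.06% to 10.3% in Tg tumours and from 0.584% to 1.22% in Tg spleen.

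The size of the Myc difference depended on how many peaks each list held. When each Myc list was reduced to its 5246 highest-scoring peaks, the length of the shortest, the share was 2.15%, 2.25% and 4.06% in Tg tumours 1, 2 and 3. It was 1.07%, 3.32% and 3.21% in Tg spleens 1, 2 and 3 and 0.959% in WT spleen. The groups then overlapped, and the difference was 0.287 percentage points (exact permutation p = 0.8). The highest-scoring tumour peaks mostly lay elsewhere. The median score percentile of Myc peaks on isolated enhancers was 39.5 to 47.2 in tumours, against 65.0 to 68.5 for Myc peaks on regions with H3K4me3. In Tg spleen those percentiles were 36.6 to 40.1 on isolated enhancers and 53.1 to 55.8 on regions with H3K4me3. With only peaks that reached their list's median score, the difference was 9.81 percentage points (exact permutation p = 0.1).

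**Figure D2:**
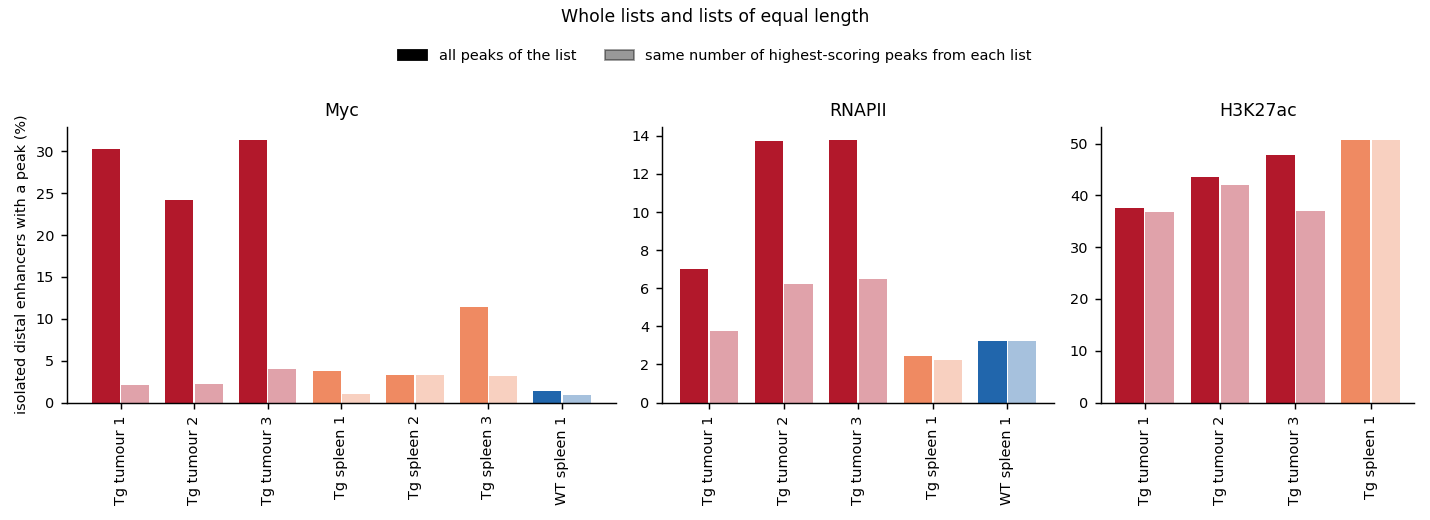
Share of isolated distal enhancers (y axis, percent) with a Myc, RNAPII or H3K27ac peak in each library (x axis), from the whole list (solid bars) and from the same number of highest-scoring peaks of each list of that antibody (pale bars). With 5246 Myc peaks per list, Tg tumours span 2.15% to 4.06% and Tg spleens 1.07% to 3.32%, whereas for RNAPII with 15571 peaks per list the 3 Tg tumours stay above both spleen libraries.

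Set against shuffled positions, that is every placement of each region on its own chromosome, the isolated enhancers overlapped Myc peaks more often at each stage. The shuffled share was 4.34%, 3.90% and 4.90% in Tg tumours 1, 2 and 3, so that the observed share was 6.98, 6.21 and 6.40 times as large. In Tg spleen the shuffled share was 1.14%, 0.807% and 1.93%, and the ratio was 3.29, 4.12 and 5.90. In WT spleen the shuffled share was 0.629% and the ratio 2.23. WT spleen Myc covered 0.278% of the centres and 0.229% at 10000 bp, so that ratio does not show Myc at the centres of the enhancers. On the log2 scale the ratio averaged 2.71 ± 0.09 in tumours and 2.11 ± 0.42 in Tg spleen (SD, n = 3 each). The difference of 0.60 had an exact two-sided permutation p of 0.1, the smallest possible. Its direction depended on the positions used. Over placements that avoided wild-type H3K4me3, as the regions do by rule, the ratio was 14.9, 14.3 and 11.3 in Tg tumours 1, 2 and 3. It was 12.7, 19.7 and 19.5 in Tg spleens 1, 2 and 3, and the log2 difference turned to -0.34 (exact permutation p = 0.3). With lists of equal length it was -0.27 (exact permutation p = 0.7). The enrichment of Myc over shuffled positions therefore had no stable order between tumour and Tg spleen, whereas a ratio above 1 was found in all 7 libraries.

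Isolated and clustered enhancers carried Myc at shares that lay within 1.62 percentage points of each other in each library. In Tg tumours 1, 2 and 3 the share was 30.3%, 24.2% and 31.4% for isolated enhancers, against 30.2%, 25.0% and 30.1% for clustered ones. In Tg spleens 1, 2 and 3 it was 3.75%, 3.32% and 11.4% for isolated enhancers, against 4.54%, 3.97% and 13.0% for clustered ones. In WT spleen it was 1.4% for isolated and 1.64% for clustered enhancers. The isolated share minus the clustered share averaged 0.23 ± 1.06 percentage points in tumours and -1.02 ± 0.53 in Tg spleen (SD, n = 3 each). The difference of 1.24 percentage points between the stages had an exact permutation p of 0.3, and the 2 groups overlapped. Without Tg tumour 3 it was 0.691. Isolated enhancers were narrower than clustered ones, with medians of 1903 bp and 2189 bp. In windows of 1000 bp the difference was 2.31 percentage points, and with at least 50% of the region covered it was 3.20 (exact permutation p = 0.1 each). With lists of equal length it was 0.156 (exact permutation p = 0.7).

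Binding in the tumours was spread over many enhancers and differed from tumour to tumour. At least 1 tumour had Myc at 3513 isolated enhancers (48.8%), against 47.1% of clustered enhancers and 62.5% of all acetylated regions. All 3 tumours had it at 813 (11.3%), against 12.1% of clustered enhancers and 33.7% of all acetylated regions. Without Tg tumour 3 the other tumours shared 19.4% of the isolated enhancers, and over the 12 alternative settings the share in all 3 was 0.653% to 16.4%. A single tumour had it at 1658 regions, of which 989 were bound in Tg tumour 3 alone, or 43.8% of that tumour's bound enhancers. The Myc list of Tg tumour 3 was the longest, with 34142 peaks. Counts for single tumours are not given here for clustered enhancers or all acetylated regions, so they cannot be read as particular to isolated enhancers. No Myc list had a peak at 3644 isolated enhancers (50.6%), against 52.3% of clustered enhancers and 37.1% of all acetylated regions. Enhancers that already carried Myc in spleen mostly carried it in tumours too. Of the enhancers bound in a Tg spleen library, 68.5% to 95.4% were bound in a given tumour over the 9 pairs of lists. In the reverse direction, 8.19% to 40.4% of the enhancers bound in a tumour were bound in a given Tg spleen library. By comparison, the tumours had Myc at 24.2% to 31.4% of all isolated enhancers. Tumour lists were longer than Tg spleen lists, and shares of this kind are not given here for clustered enhancers or all acetylated regions. The overlap therefore cannot be read as particular to isolated enhancers.

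A set of 328 isolated enhancers (4.56%) had Myc in each of the 3 tumours but in no spleen list. That pattern was found at 4.36% of clustered enhancers and 7.22% of all acetylated regions. Without Tg tumour 2, Tg tumour 3 or Tg spleen 3 the share of isolated enhancers was 8.31%, 9.67% or 7.82%. Over the 12 alternative settings it was 0.0834% to 6.11%. The 328 regions had a median wild-type score of 392, against 223 over all isolated enhancers, and a median distance to wild-type H3K4me3 of 11645 bp, against 17416 bp. H3K27ac was present in Tg spleen at 78.4% of them, against 50.8% of all isolated enhancers, and H3K4me1 in all 3 tumours at 97.3%, against 46.3%. The 5 with the highest mean percentile of tumour Myc score are described here by position on mm9. In the tumour Myc lists 1294, 1036 and 676 peaks shared the score 3100, so the highest percentiles include ties. The first, on chromosome 10 from 76497563 to 76498526, averaged the 98.0th percentile of the tumour Myc lists. It lay 158 bp from a wild-type H3K4me3 peak and carried H3K4me3 in all Tg lists. The second, on chromosome 5 from 125923951 to 125925473 (97.4th percentile), lay 234 bp from wild-type H3K4me3. It carried H3K4me3 in the 3 tumours and in neither Tg spleen, H3K27ac in tumours 2 and 3, and no H3K27ac in Tg spleen. A region on chromosome 14 from 10221833 to 10222920 (92.6th percentile) carried H3K27ac in every Tg list. A region on chromosome 4 from 106261783 to 106264644 (83.9th percentile) lay 26223 bp from wild-type H3K4me3. In the 3 tumours it carried Myc, RNAPII, H3K27ac, H3K4me1 and H3K4me3, and in Tg spleen it carried H3K27ac and, in list 1 alone, H3K4me1. The last, on chromosome 14 from 31404182 to 31408664 (83.4th percentile), carried RNAPII in all 5 RNAPII lists and lay 214 bp from wild-type H3K4me3. Of the 5, 3 thus lay at most 234 bp from a wild-type H3K4me3 peak.

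Myc was present in all 7 lists at 50 isolated enhancers (0.695%), against 0.691% of clustered enhancers and 6.37% of all acetylated regions. Without the WT spleen list the share of isolated enhancers was 1.4%, and over the 12 alternative settings it was 0% to 1.25%. These 50 were wide and strong, with a median width of 3620 bp and a median wild-type score of 1114, against 1903 bp and 223 over all isolated enhancers, and all 50 carried H3K27ac in Tg spleen. The 5 with the highest mean Myc percentile lay on chromosome 4 from 118852647 to 118857577, on chromosome 10 from 79402216 to 79408753, on chromosome 15 from 75488583 to 75490586, on chromosome 11 from 95150749 to 95156827 and on chromosome 9 from 22127356 to 22130031. Each of the 5 carried H3K27ac in all 4 Tg lists. The regions on chromosomes 10, 11 and 15 had H3K4me3 in all 3 tumours and in neither Tg spleen, while those on chromosomes 4 and 9 had no H3K4me3 in any Tg list. RNAPII was absent from the region on chromosome 4 in all 5 lists and was found at the other 4 in tumours alone.

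The 5 isolated enhancers with the highest wild-type acetylation score, between 3173 and 3228, lay above the score that 130 others shared and were not read as stronger than those. They kept H3K27ac in all 4 Tg lists. They lay on chromosome 1 from 58774585 to 58782005, on chromosome 12 from 86596632 to 86600615, on chromosome 2 from 102652022 to 102658137, on chromosome 16 from 55906433 to 55908487 and on chromosome 11 from 72348901 to 72355802. At each of them Myc was found in 2 or 3 tumours. In spleen it was found at 2 of them: in Tg spleen 1 and WT spleen on chromosome 1, and in Tg spleen 3 on chromosome 2.

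Coverage by Myc peaks was higher at the centres of the enhancers than 10000 bp away in each Tg library, whereas WT spleen showed no clear rise at the centre. Myc covered the centre of 25.3%, 19.2% and 26.3% of the isolated enhancers in Tg tumours 1, 2 and 3, and 10000 bp away it covered 5.21%, 4.68% and 5.52%. In Tg spleens 1, 2 and 3 the centre was covered in 0.806%, 2.39% and 8.58%, against 0.514%, 0.994% and 2.33% at 10000 bp. In WT spleen the values were 0.278% at the centre and 0.229% at 10000 bp, but 0.320% at -7000 bp and at 6750 bp. Among bound enhancers, 94.4% to 95.2% in tumours and 69.6% to 91.2% in Tg spleen had a peak that overlapped the central 1000 bp. In WT spleen that share was 66.3%. The median Myc peak was longer than 1000 bp in all lists but Tg spleen 1 and WT spleen, so such an overlap does not show where a peak was centred. At 2500 bp from the centre Myc covered 3.20% to 4.30% in tumours, less than at 10000 bp. The part of the rule in that low level was not tested.

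**Figure D3:**
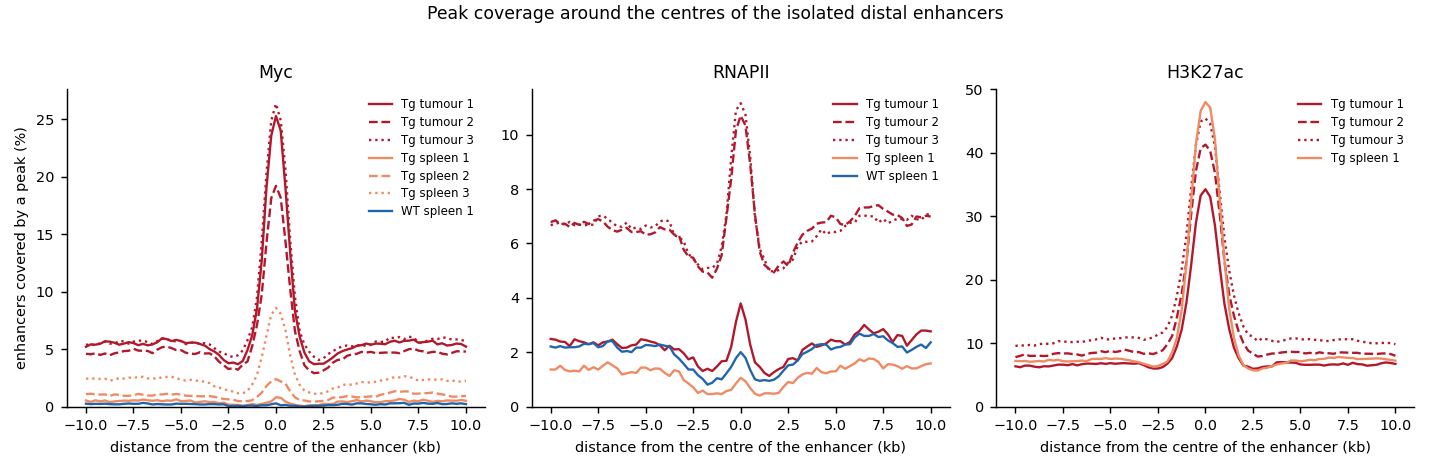
Share of the isolated distal enhancers (y axis, percent) whose position at a given distance from the centre (x axis, kb) lies in a Myc, RNAPII or H3K27ac peak, 1 line per library. Myc reaches 19.2% to 26.3% at the centre in Tg tumours and 0.806% to 8.58% in Tg spleen; RNAPII reaches 10.7% and 11.2% in Tg tumours 2 and 3 and 3.79% in Tg tumour 1, on a flank level that also differs between libraries.

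RNAPII was found at few isolated enhancers, and at more of them in tumours. The share was 7.02%, 13.7% and 13.8% in Tg tumours 1, 2 and 3, against 2.43% in Tg spleen and 3.21% in WT spleen. Every tumour was above both spleen libraries, and Tg tumour 1 was well below the other tumours. Its RNAPII peaks were also narrower, with a median of 581 bp against 1432 and 1545 bp in Tg tumours 2 and 3, 524 bp in Tg spleen and 894 bp in WT spleen. The mean was 11.5% ± 3.90 in tumours (SD, n = 3) and 2.82% ± 0.55 in spleen of both genotypes (SD, n = 2). The difference was 8.70 percentage points (exact two-sided permutation p = 0.2, the smallest that 3 against 2 libraries allow). With 15571 peaks per list it was 2.78 percentage points, with only peaks that reached their list's median score 4.1, and with at least 50% of the region covered 5.40. Over all acetylated regions RNAPII was found at 28.1%, 35.9% and 35.2% in tumours, at 23.9% in Tg spleen and at 24.5% in WT spleen. Against shuffled positions the ratio was 2.77, 2.88 and 2.99 in Tg tumours 1, 2 and 3, against 1.5 in Tg spleen and 1.71 in WT spleen. Over placements that avoided wild-type H3K4me3 the ratio was 5.95, 4.62 and 4.92 in Tg tumours 1, 2 and 3, 5.92 in Tg spleen and 5.54 in WT spleen. The tumour minus spleen difference in log2 ratio thus turned to -0.16, against 0.84 over all placements. At the centre RNAPII covered 1.44, 1.55 and 1.62 times as many enhancers as at 10000 bp in tumours, against 0.717 times in Tg spleen and 0.875 times in WT spleen. At 2500 bp RNAPII covered 1.78%, 5.32% and 5.36% in Tg tumours 1, 2 and 3, 0.806% in Tg spleen and 1.44% in WT spleen. At the centre it covered 3.79%, 10.7% and 11.2% in the tumours, 1.06% in Tg spleen and 2.00% in WT spleen. Every library was thus higher at the centre than at 2500 bp, and of the 5 libraries only the 3 tumours were higher there than at 10000 bp. The rule keeps the centres, but not the flanks, off wild-type H3K4me3. WT spleen H3K4me3 lists 1 and 2 covered 0% of the centres, against 4.48% and 6.32% at 10000 bp. The part of the rule in these centre-to-flank ratios was not tested.

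A set of 143 isolated enhancers (1.99%) had RNAPII in each of the 3 tumours but in neither spleen list, near the 2.44% of all acetylated regions. The spleen lists were shorter than the tumour lists, and with 15571 peaks per list the share of isolated enhancers was 0.723%. Without Tg tumour 1 or Tg tumour 3 the share was 4.48% or 3.57%, and over the 12 alternative settings 0.625% to 2.56%. RNAPII in all 5 lists was found at 74 (1.03%), against 1.10% of clustered enhancers and 18.5% of all acetylated regions. The opposite pattern, both spleen lists and no tumour, was found at 1 isolated enhancer, against 0.125% of all acetylated regions. Of the 143, 43.4% had Myc in all 3 tumours, against 11.3% of all isolated enhancers, and 23.1% had Myc in none, against 51.2%. The 3 with the highest RNAPII percentile lay on chromosome 7 from 152117447 to 152120519, on chromosome 16 from 33954374 to 33956461 and on chromosome 7 from 142896378 to 142898643. Each carried H3K27ac in Tg spleen. Myc was found at the first in Tg tumour 1 and at the others in no list.

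Acetylation, which defined the regions in wild-type cells, was found again at 37.6% to 50.8% of them in the Tg lists. These values are a description, since the regions were chosen by their acetylation in WT spleen and any other list can only show fewer. By library, H3K27ac was present at 37.6%, 43.6% and 47.8% of isolated enhancers in Tg tumours 1, 2 and 3, against 50.8% in Tg spleen. Over all acetylated regions the shares were 55.8%, 62.8% and 63.9% in the tumours and 66.8% in Tg spleen. Clustered enhancers kept it slightly more often, at 41.8%, 49.2% and 50.9% in the tumours and 52.4% in Tg spleen. The tumour mean of 43.0% ± 5.11 (SD, n = 3) was 7.75 percentage points below the single Tg spleen library, with no test. All 3 tumours lay below it. With only peaks that reached their list's median score the sign turned, to 5.90 percentage points above. Against shuffled positions the ratio was 7.63, 7.46 and 6.60 in Tg tumours 1, 2 and 3 and 9.22 in Tg spleen.

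Retention was uneven among the enhancers. H3K27ac was present in all 3 tumours at 1341 isolated enhancers (18.6%), against 43.2% of all acetylated regions. In Tg spleen and all 3 tumours it was present at 1204 (16.7%), against 41.9%. For clustered enhancers those shares were 23.7% and 21.6%. H3K27ac was present in none of the 4 Tg lists at 1748 (24.3%), against 23.7% of clustered enhancers and 17% of all acetylated regions. Over the 12 alternative settings the share of isolated enhancers was 9.23% to 63.5%. Tg spleen without any tumour had it at 438 (6.09%, against 3.96%). All 3 tumours without Tg spleen had it at 137 (1.90%, against 1.32%). The 1204 that kept it had a median wild-type score of 783 and the 1748 acetylated in no Tg list one of 129. A higher wild-type score went with more frequent H3K27ac in each library, described here with no test. That score comes from the list that chose the regions. The lowest quartile, 80.01 to 126.07, starts at the lowest score of any list, so it holds peaks near the limit of calling. Regions of the highest quartile were also wider (median 3258 bp against 1292 bp), and no shuffled share of H3K27ac is given by quartile. In the quartile of enhancers with the highest wild-type score, H3K27ac was found at 66.6%, 75.5% and 68.3% in Tg tumours 1, 2 and 3 and at 93.2% in Tg spleen. In the quartile with the lowest, it was found at 18.9%, 21.7% and 31.2% in the tumours and at 17.3% in Tg spleen. The weakest quartile was thus kept no less often in the tumours than in Tg spleen, and the strongest less often. Of the enhancers acetylated in no Tg list, 90% had Myc in no tumour, against 51.2% of all isolated enhancers, and 29.1% had H3K4me1 in no tumour, against 8.95%. The 3 with the highest wild-type score, 1933, 1576 and 1215, lay on chromosome 1 from 51962926 to 51967165 and on chromosome 7 from 52077995 to 52084137 and from 133352624 to 133359402. All 3 kept H3K4me1 in both Tg spleen lists. The second carried RNAPII and H3K4me1 in all 3 tumours without H3K27ac.

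**Figure D4:**
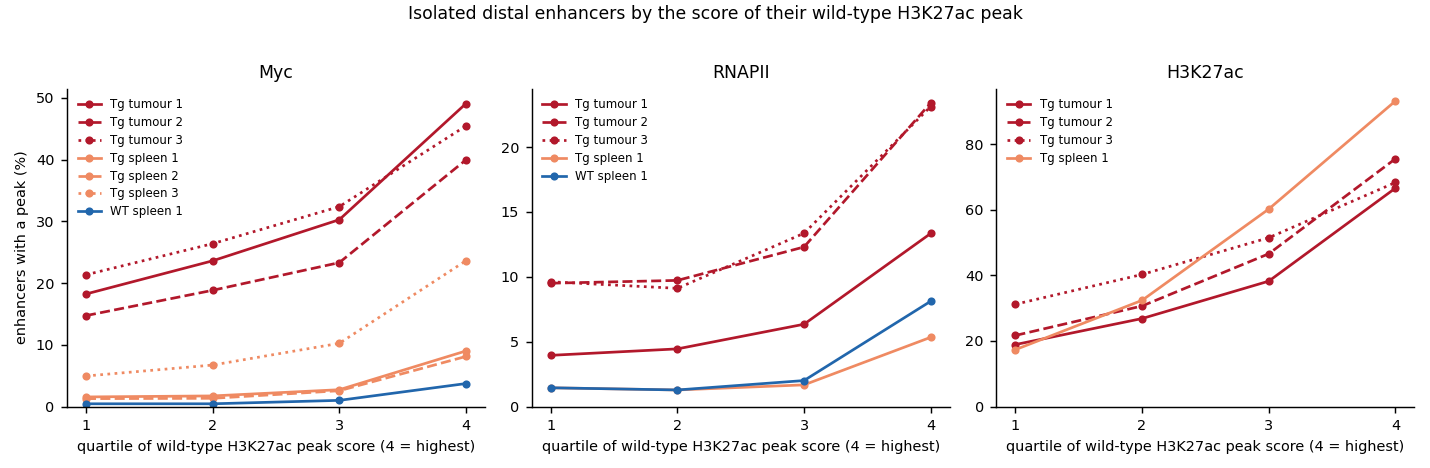
Share of isolated distal enhancers (y axis, percent) with a Myc, RNAPII or H3K27ac peak in each library, by quartile of the score of their wild-type H3K27ac peak (x axis, 4 = highest). H3K27ac spans 18.9% to 31.2% in Tg tumours and 17.3% in Tg spleen in the lowest quartile, and 66.6% to 75.5% in Tg tumours and 93.2% in Tg spleen in the highest.

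Myc and RNAPII showed the same gradient, described here with no test. In the tumours Myc was found at 49.1%, 40.0% and 45.5% of the highest quartile in Tg tumours 1, 2 and 3, against 18.2%, 14.7% and 21.3% of the lowest. In Tg spleens 1, 2 and 3 the values were 9.01%, 8.12% and 23.6% in the highest quartile, against 1.56%, 1.28% and 4.95% in the lowest. In WT spleen they were 3.72% and 0.445%. The regions of the highest quartile were wider, with a median of 3258 bp against 1292 bp, and a wider region is overlapped more often by chance. The shuffled share of Myc in the tumours was 5.17% to 6.5% in the highest quartile and 3.10% to 3.91% in the lowest. RNAPII was found at 13.3%, 23.4% and 23.1% of the highest quartile in Tg tumours 1, 2 and 3, against 3.95%, 9.51% and 9.62% of the lowest. Both were also more frequent near wild-type H3K4me3. Within 2500 bp of it Myc was found at 33.4%, 26.8% and 34.1% of enhancers in the 3 tumours, and at 50035 bp or more at 23.4%, 19.6% and 26.9%. For RNAPII those shares were 8.82%, 17.8% and 20.1% near and 3.28%, 7.27% and 7.09% far.

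Within each tumour Myc was concentrated at the enhancers that carried H3K27ac in the tumour list of the same number. In Tg tumour 1 Myc was found at 64.1% of the acetylated enhancers (1735 of 2708, exact 95% binomial interval 62.2% to 65.9%) and at 9.92% of the others. In Tg tumour 2 the shares were 49.0% and 5.03%, and in Tg tumour 3 they were 60% and 5.19%. The mean difference was 51.0 ± 6.07 percentage points (SD, n = 3), with the same direction in 3 of 3 tumours. Read the other way, H3K27ac was found at 86.4% ± 6.11 of the Myc-bound enhancers and at 25.5% ± 5.37 of the unbound ones (SD, n = 3). With the 5246 highest-scoring Myc peaks of each list the mean difference was 7.13 percentage points, and with at least 50% of the region covered it was 37.2. RNAPII was found at 20.4% ± 5.30 of acetylated enhancers and at 4.58% ± 1.88 of the others (SD, n = 3). Such shares are not given here for clustered enhancers or all acetylated regions, so they cannot be read as particular to isolated enhancers. Width also differed, with a median of 2865.5 bp in enhancers acetylated in all 4 Tg lists and 1470 bp in those acetylated in none. A wider region is overlapped more often by chance.

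**Figure D5:**
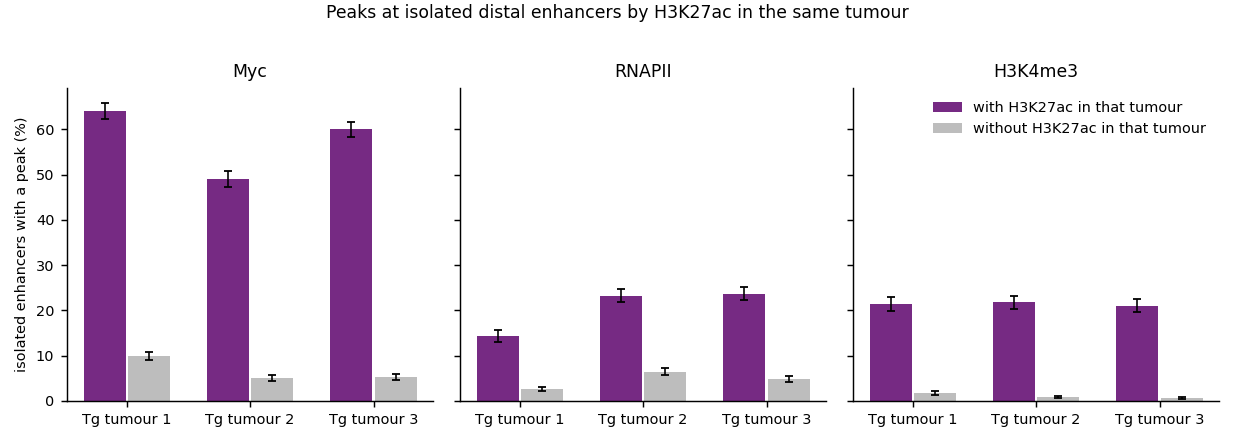
Share of isolated distal enhancers (y axis, percent) with Myc, RNAPII or H3K4me3, among those with (purple) and without (grey) H3K27ac in the tumour list of the same number (x axis). Bars are shares within 1 library and whiskers exact 95% binomial intervals; Myc stands at 49.0% to 64.1% with H3K27ac and 5.03% to 9.92% without.

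The match between Myc and H3K27ac was closest between lists of the same number. When Myc of one tumour was set against H3K27ac of another, over the 6 pairs of different numbers, Myc was found at 31.2% to 52.7% of the acetylated enhancers and at 9.76% to 25.9% of the others. The difference was 13.3 to 39.7 percentage points in those 6 pairs and 44.0 to 54.8 in the 3 pairs of equal number, with no overlap. The pairs share lists, so no test was made, and the labels do not say that lists of 1 number come from 1 tumour. Tumours 1 and 2 resembled each other in this respect, at 39.7 and 38.4 percentage points, and pairs with a list of tumour 3 gave 13.3 to 16.8.

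Acetylation in Tg spleen also went with Myc. In Tg spleens 1, 2 and 3 Myc was found at 6.73%, 6.02% and 19.0% of the 3653 isolated enhancers with H3K27ac in Tg spleen, and at 0.678%, 0.536% and 3.53% of the 3542 without. In Tg tumours 1, 2 and 3 Myc was found at 44.2%, 36.8% and 41.4% of the same 3653 and at 15.9%, 11.2% and 21.0% of the 3542. Such shares are not given here for clustered enhancers or all acetylated regions, so they cannot be read as particular to isolated enhancers. H3K27ac in Tg spleen was found at 81.8% of the widest quartile of regions and 23.5% of the narrowest. A wider region is overlapped more often by chance.

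H3K4me1, which by rule was present at every region in WT spleen, was the mark found most often in the Tg lists. It was found at 67.6%, 73.4% and 69.6% of isolated enhancers in Tg tumours 1, 2 and 3, against 92.7% and 74.7% in Tg spleens 1 and 2. The 3 tumours lay below both Tg spleens, though Tg spleen 2 exceeded Tg tumour 2 by little. The mean was 70.2% ± 2.95 in tumours (SD, n = 3) and 83.7% ± 12.7 in Tg spleen (SD, n = 2). The difference of -13.5 percentage points had an exact two-sided permutation p of 0.2, the smallest possible. The rule required H3K4me1 in WT spleen, of the same tissue and age as Tg spleen. Its part in the difference was not tested, so the p cannot be read apart from it. Without Tg spleen 1 the difference was -4.53, and without Tg spleen 2 it was -22.5. Tg lists of H3K4me1 held 42722 to 66090 peaks and those of H3K27ac 30895 to 42542. Against shuffled positions the H3K4me1 ratio was 7.56, 7.98 and 5.89 in Tg tumours 1, 2 and 3, and 8.31 and 9.64 in Tg spleens 1 and 2. For H3K27ac it was 7.63, 7.46 and 6.60 in the tumours and 9.22 in Tg spleen, so the ratios of the marks overlapped. Over all acetylated regions H3K4me1 was found at 77.9%, 82.4% and 78.9% in the tumours and at 92.8% and 76.3% in Tg spleen. All 5 Tg lists had it at 2962 isolated enhancers (41.2%), against 49.6% of clustered enhancers and 56.2% of all acetylated regions. Both Tg spleens and no tumour had it at 189 (2.63%, against 1.47%). Acetylation in tumours was nearly confined to enhancers with H3K4me1: H3K27ac was found at 60% ± 6.93 of those with H3K4me1 in the tumour and at 3.15% ± 1.89 of those without (SD, n = 3). For Myc the shares of the same groups were 40.3% ± 6.68 and 1.46% ± 0.58. Between 22.4% and 31.2% of the isolated enhancers had H3K4me1 without H3K27ac in a tumour, and 25.2% to 31.7% had neither.

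H3K4me3, which by rule was absent from the regions in WT spleen, appeared at about 1 in 10 of them in tumours. The share was 9.06%, 9.91% and 10.3% in Tg tumours 1, 2 and 3, against 0.584% and 1.22% in Tg spleens 1 and 2. The tumours stood apart from both Tg spleens. The mean was 9.77% ± 0.64 in tumours (SD, n = 3) and 0.903% ± 0.45 in Tg spleen (SD, n = 2). The difference of 8.86 percentage points had an exact two-sided permutation p of 0.2, the smallest possible. The regions were chosen for lacking H3K4me3 in WT spleen, of the same tissue and age as Tg spleen. The p therefore cannot be read apart from the rule, whose part in the difference was not tested. With 16425 peaks per list the difference was 4.57 percentage points, and with at least 50% of the region covered it was 5.23. With only peaks that reached their list's median score it was 0.533, so that it rested on lower-scoring H3K4me3 peaks. Over all acetylated regions H3K4me3 was found at 39.8%, 42.3% and 40.3% in the tumours and at 34.8% and 36.8% in Tg spleen. Against shuffled positions the ratio was 2.71, 2.81 and 2.97 in Tg tumours 1, 2 and 3 and 0.211 and 0.412 in Tg spleen. The values below 1 are set by the rule, which keeps the regions, but not the placements, off wild-type H3K4me3. Over placements that avoided it the ratio was 16.8, 16.7 and 15.1 in Tg tumours 1, 2 and 3 and 12.2 and 18.6 in Tg spleens 1 and 2, so the groups overlapped. Clustered enhancers had H3K4me3 at 7.82%, 9.01% and 7.94% in the tumours, below the isolated ones in each.

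H3K4me3 in tumours was scattered. At least 1 tumour had it at 1475 isolated enhancers (20.5%), against 17.6% of clustered enhancers and 49.4% of all acetylated regions. All 3 tumours and neither Tg spleen had it at 101 (1.4%), against 1.15% of all acetylated regions. Without Tg tumour 1 or Tg tumour 3 the share of isolated enhancers was 2.63% or 4.73%, and over the 12 alternative settings it was 0.0834% to 1.86%. Within a tumour, H3K4me3 was found at 21.4% ± 0.37 of the acetylated enhancers and at 0.991% ± 0.58 of the others (SD, n = 3). Myc was found at 79.9% ± 1.54 of enhancers with H3K4me3 in the tumour and at 23.1% ± 4.17 of those without (SD, n = 3). RNAPII was found at 41.9% ± 12.8 of the first and 8.18% ± 2.74 of the second (SD, n = 3). Wild-type acetylated regions on wild-type H3K4me3 had Myc at 75.5% to 79.3% in the tumours. Those regions were picked by H3K4me3 in WT spleen and not in the tumour, so the 2 measures differ. Of the 101 enhancers, 73.3% had Myc in all 3 tumours, against 11.3% of all isolated enhancers, and 81.2% had H3K27ac in Tg spleen, against 50.8%. Within 2500 bp of wild-type H3K4me3 lay 17.8% of them, against 13.2%. The tumour H3K4me3 lists had 7089, 8199 and 8755 peaks tied at the score 3100. The 3 enhancers with the highest mean H3K4me3 percentile, all at 79.4, lay on chromosome 2 from 118426358 to 118428493 and from 166892038 to 166894179 and on chromosome 5 from 125923951 to 125925473. They stood 1071, 652 and 234 bp from a wild-type H3K4me3 peak. All 3 carried Myc in all 3 tumours.

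The shares varied between chromosomes in a way that differed from tumour to tumour. On chromosome 13, with 367 isolated enhancers, Myc was found at 10.4% in Tg tumour 2, against 24.2% over all chromosomes, while Tg tumours 1 and 3 had 24.8% and 33%. H3K27ac on chromosome 13 was found at 25.1% in Tg tumour 2, against 43.6% over all chromosomes, and RNAPII at 5.72%, against 13.7%. Clustered enhancers of chromosome 13 had Myc at 14.4% in Tg tumour 2, against 25.9% and 23.6% in Tg tumours 1 and 3, and regions with H3K4me3 had it at 63.7%, against 75.7% and 72.1%. On chromosome 3, with 392 isolated enhancers, Myc was found at 41.1% in Tg tumour 1, against 20.9% and 23.5% in Tg tumours 2 and 3. Among chromosomes with at least 100 isolated enhancers, Tg tumour 2 had its highest share on chromosome 5, 37.9%, and on the X chromosome Tg tumour 1 had its lowest, 15.6%.

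Most isolated enhancers were not acetylated in fibroblasts. In 3T9 cells that carry MycER, a Myc protein switched on by 4-hydroxytamoxifen (OHT), H3K27ac was found at 14.9% of the isolated enhancers at 0 h and 13.4% at 4 h. The shuffled shares were 7.23% and 6.59%, and over all acetylated regions H3K27ac was found at 36.6% and 35.4%. Clustered enhancers had it at 17.2% at 0 h and 15.6% at 4 h. H3K4me1 was found at 28.5% of isolated enhancers at 0 h and 29.8% at 4 h, against 49.0% and 49.5% of all acetylated regions. Regions with wild-type H3K4me3 had H3K27ac in 65.9% at 0 h and 65.3% at 4 h, more often than isolated or clustered distal enhancers. Myc was found at 5.14% of isolated enhancers at 0 h and 9.23% at 4 h of 400 nM OHT, with shuffled shares of 2.61% and 4.27%. Over all acetylated regions the share was 23.3% at 0 h and 30.9% at 4 h. After serum was returned to starved 3T9 cells, Myc was found at 1.36%, 2.06% and 4.81% of isolated enhancers at 0, 1 and 2 h, with shuffled shares of 0.859%, 1.26% and 2.47%. Over all acetylated regions it was found at 9.63%, 13.1% and 21.7%. Isolated enhancers, shuffled positions and the whole acetylated set were thus all highest at the last time in both experiments. Each of these lists was a single library, so no test was made. Of the 664 enhancers with Myc at 4 h of OHT, 550 (82.8%) had H3K27ac in the separate 3T9 library at 0 h. This share and the tumour shares that follow are not given here for clustered enhancers or all acetylated regions. None of them can be read as particular to isolated enhancers. Myc in all 3 tumours was found at 18.3% of the 311 isolated enhancers with fibroblast Myc at 4 h alone, at 22.7% of the 353 with it at both times and at 10.3% of the 6514 with it at neither. In Tg tumours 1, 2 and 3 Myc was found at 33.5%, 26.2% and 35.0% of the 1073 isolated enhancers with fibroblast H3K27ac at 0 h, against 29.7%, 23.9% and 30.8% of the 6122 without. The share was higher with it in each of the 3 tumours, with no test.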

How the data were processed

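Per the submitters' processing notes, reads were handled with BWA 0.6.2, SAMtools and MACS 1.4.1 on mm9. Their settings are not stated in the labels. Each library had its deposited list, with 5 columns. The score as deposited by the authors has the scale that MACS writes, -10 log10 of a peak's p-value, here 80.01 to 3233. Scores were compared or filtered inside a single list only, and ties at 3100 got 1 percentile. Of 53 lists, 44 mouse lists were used; 6 starts below 0 were set to 0, and 9 human lists were not used here. No 2 lists were identical. Group names follow the labels' genotype and cell type; 1 input library of the transgenic spleen was labelled wild type, and inputs had no list and entered no comparison.

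Overlaps of at least 1 bp were counted. The shuffled share was computed over every placement of each region on its chromosome, whose length was the highest peak end over the mouse lists, so unmappable stretches are included. Differences between groups were tested by exact permutation over libraries, two-sided, p being double the smaller tail; the smallest possible p is 0.1 for 3 against 3 and 0.2 for 3 against 2, so none could pass 0.05. Regions within a library are not replicates, and binomial intervals cover counting error only. The regions, comparisons and alternatives were chosen with earlier results of these data known.

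Named regions were chosen with ties broken by chromosome and start. They were the 5 with the highest wild-type score and the 2 nearest to the distance limit on each side. The 5 with the highest mean Myc percentile were named among those bound in all tumours and no spleen list, and among those bound in all 7 lists. Of the regions with H3K27ac in no Tg list, the 3 with the highest wild-type score were named. For H3K4me3, the 3 with the highest mean tumour percentile were named among regions with it in all tumours and no Tg spleen list. For RNAPII, the 3 highest were named likewise among regions with it in all tumours and no spleen list. Positions are 1-based on mm9. No annotation or genome of mm9 was used, so genes, motifs and sequences are not reported. Python 3.11.15, numpy 2.4.6, pandas 2.3.3, scipy 1.17.1 and matplotlib 3.10.9 were used. Overlap counts were checked on simulated lists and against bedtools 2.31.1.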

Additional observations from a re-analysis of the deposited data

How the results depend on the processing

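The 8 comparisons were recomputed with a score filter, an overlap of 50%, windows of 1000 bp, lists of equal length, isolation distances of 5000 and 25000 bp, a distance of 2500 bp from H3K4me3, H3K4me1 in both wild-type lists, stronger regions only, chromosomes 1 to 19 and each library left out. Peaks set to 500 bp, isolation from any acetylated peak and all alternatives for the Myc share by acetylation were added after the data were seen. Of 140 values, 137 kept their direction, and 23 of these lay more than 1.5 times above or below the value in the report, the Myc difference of 0.287 points with lists of equal length and the H3K4me3 difference of 0.533 points with the score filter among them. No test here could pass 0.05, so the p-values say nothing about stability. The 3 that turned were the Myc ratio to shuffled positions at -0.27 with lists of equal length and at -0.34 over positions free of wild-type H3K4me3, and the H3K27ac difference at 5.90 points with the score filter. The RNAPII log2 ratio, added later, also turned, to -0.16, over positions free of wild-type H3K4me3, and that of H3K4me3 was 0.10 there, against 3.26. The H3K27ac difference moved to -18.9 points in regions at or above their median wild-type score, and the Myc difference by acetylation to 37.2 points with 50% overlap and 7.13 points with lists of equal length. With a library left out, the Myc difference was 21.1 to 25.1 points, its log2 ratio 0.41 to 0.82, isolated minus clustered 0.691 to 1.75 points, RNAPII 7.55 to 10.9 points, H3K4me1 -22.5 to -4.53 points, H3K4me3 8.54 to 9.21 points, H3K27ac -10.1 to -5.06 points and Myc by acetylation 49.1 to 54.5 points. Isolated minus clustered ranged from 0.156 to 3.20 points over the other alternatives, with exact permutation p from 0.1 to 0.9. The Myc ratio had no value with 50% overlap, since Tg spleen 1 then had no bound region. Replicate numbers did not pair tumour with Tg spleen lists of 1 antibody, whose same-numbered deviations correlated at -0.09 to -0.03 for Myc; whether lists of different antibodies share a tumour by number was not tested by this. With the numbers as a replicate block the Myc difference was 22.5 points (exact sign-flip p = 0.25, the smallest for 3 pairs), its ratio 0.60 (exact p = 0.25), isolated minus clustered 1.24 points (exact p = 0.5), H3K4me1 -13.2 points and H3K4me3 8.58 points (exact p = 0.5 each, the smallest for 2 pairs), and no such p could pass 0.05. RNAPII and H3K27ac had too few spleen libraries for a block. Depth is unknown, so shares set by list length cannot be separated from it.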
